A study of Arabidopsis thaliana with 210 samples.

Results

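The nuclei described here are the single nuclei of the Arabidopsis thaliana shoot apex that held RNA of ATML1 (AT4G21750). They were chosen by their ATML1 counts: a nucleus was ATML1-positive with at least 5 ATML1 counts and at least 10 CPM (counts scaled to a common library total), and ATML1-negative with fewer than 5 counts. Only nuclei processed with Smart-seq2, which amplifies full-length cDNA of a single cell or nucleus, with at least 50000 counts on genes were classed. Of the 138 such nuclei, 55 were positive, 80 were negative and 3 were neither, out of 186 Smart-seq2 nuclei and 210 wells in all.

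All wells carry ecotype Col-0, with no mutation, transgene or treatment named. The count table nevertheless lists an mCherry reporter of unnamed line and promoter, which was expressed in 16 and 27.6% of ATML1-positive and ATML1-negative p1 nuclei and in 6.67 and 5.88% of those of p2. The seedlings grew on soil under 16 h of light and 8 h of dark, and shoot apices were taken at 7 days after germination. The labels call every well stem cells and the molecule nuclear RNA, and each single nucleus was sorted into its own well. The labels also carry p1 or p2 without saying what these are, so p1 and p2 were kept apart throughout. No plant or pool is named for a nucleus, so p1 and p2 count as 1 sample each, nuclei are not replicates, and no test between positive and negative nuclei was possible.

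ATML1 is a transcription factor of the HD-ZIP IV family that specifies the epidermis, the outermost cell layer of the shoot. In Arabidopsis it acts with its close relative PDF2, and both bind a short promoter word called the L1 box. The outermost layer secretes the cuticle, a film of cutin polyester and waxes, from fatty acids that are elongated, oxidised and exported by dedicated enzymes and transporters. PDF1, a proline-rich cell wall protein, is a widely used marker of this layer.

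In p1, 25 of 57 nuclei were positive (43.9%, exact Clopper-Pearson 95% interval 30.7 to 57.6%), 29 were negative and 3 were neither. In p2, 30 of 81 nuclei were positive (37%, 26.6 to 48.5%) and 51 were negative. The intervals of shares here and below treat nuclei as independent draws and do not cover differences between plants, pools or sorts. The reads carry no molecular identifiers. The lowest, median and highest ATML1 levels of the positive nuclei were 13.6, 71.2 and 1385 CPM in p1 and 11.9, 338 and 3992 CPM in p2. ATML1 levels among positive nuclei therefore ran over a wide range, and the median was higher in p2. Just inside the threshold lay p1 nucleus 40 at 13.6 CPM and p2 nucleus 39 at 11.9 CPM. Just outside it lay the 3 p1 nuclei of neither class, at 8.59, 8.52 and 7.41 CPM. Of the negative nuclei, 20 of 29 in p1 and 46 of 51 in p2 had 0 ATML1 counts.

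Depth was similar between the classes in p1 and not in p2. Positive p1 nuclei had 468669 to 4437970 counts with a median of 2023182, and negative ones 241666 to 8102382 with a median of 2013537. Positive p2 nuclei had 191881 to 1091153 counts with a median of 524332, and negative ones 132568 to 1236901 with a median of 360867. A gene was counted as expressed in a nucleus at 5 counts and 10 CPM. By this measure the median positive nucleus expressed 3240 genes in p1 and 2559 in p2, against 2659 and 2009 in negative nuclei. After thinning every nucleus at random to 50000 counts, the medians of genes detected were 3169 and 2496.5 in positive nuclei against 2614 and 2034 in negative ones, so positive nuclei held more genes at equal depth too. The part of this excess in the results below was not tested, and the share over all measured genes is therefore given beside them. The plastid and mitochondrial share of counts was close between the classes, with medians of 14.6 and 14.7% in p1 and 20.4 and 19.4% in p2.

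The epidermal label was checked against PDF1 (AT2G42840). In p2, the lowest, median and highest PDF1 levels were 0, 4439 and 14609 CPM in positive nuclei and 0, 2.99 and 5049 CPM in negative ones. PDF1 was expressed in 27 of 30 positive nuclei (90%, 73.5 to 97.9%) and in 16 of 51 negative nuclei (31.4%, 19.1 to 45.9%), and its mean level was 10-fold higher in the former. The p1 nuclei gave another picture, with 0.81, 671 and 6996 CPM in positive nuclei and 1.13, 641 and 11713 CPM in negative ones. PDF1 was expressed there in 23 of 25 positive nuclei (92%, 74 to 99%) and in 23 of 29 negative nuclei (79.3%, 60.3 to 92%), and the mean level was 0.865-fold that of negative nuclei. Positive nuclei of both p numbers thus carried the epidermal marker, but most negative p1 nuclei carried it as well, and the p1 classes overlapped over nearly their whole range. The data go against the label as a separation of epidermal from other nuclei in p1, so the nuclei are called by their rule, ATML1-positive, throughout. Both negative control wells, which received no nucleus, held 0 counts of ATML1 and of PDF1.

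**Figure D1:**
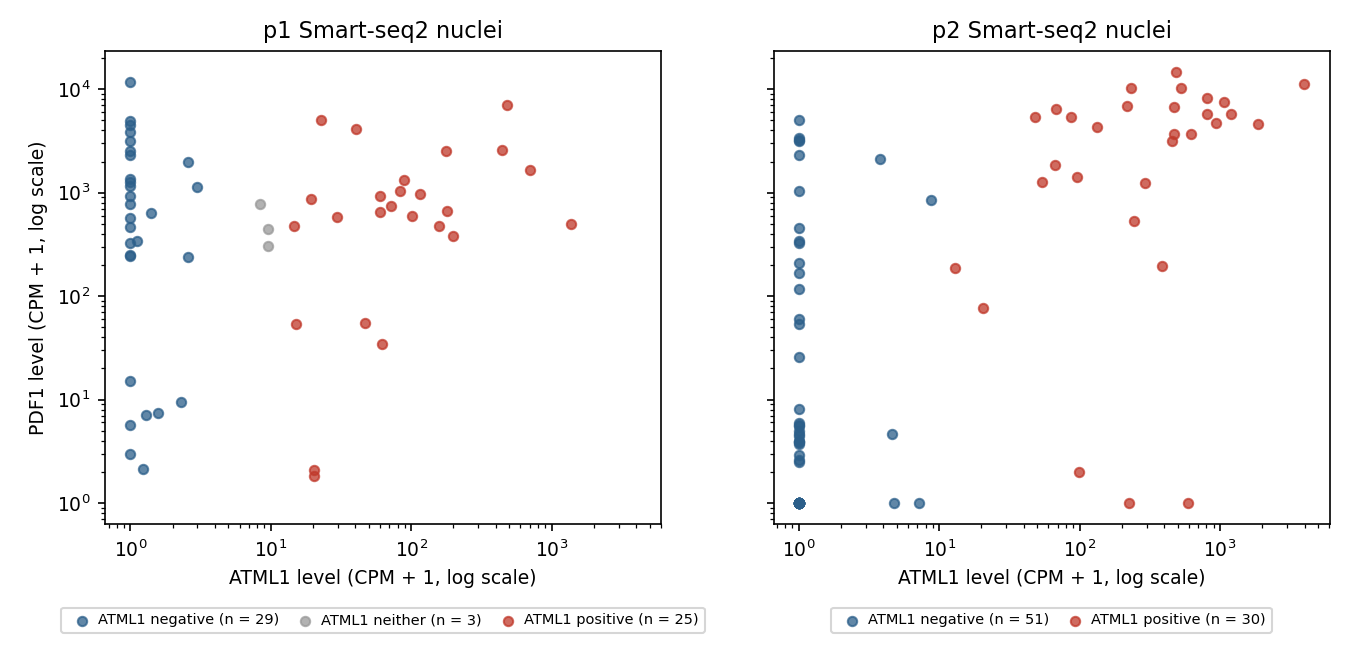
PDF1 level against ATML1 level (both CPM + 1, log axes) for each p1 nucleus (left) and p2 nucleus (right), coloured by ATML1 class. In p1 most nuclei of both classes express PDF1, 92% of the positive and 79.3% of the negative ones, whereas in p2 the positive nuclei reach a median of 4439 CPM and the negative ones 2.99 CPM.

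Within the positive nuclei, the amount of ATML1 was only loosely tied to that of PDF1. Across nuclei, Spearman's rho of the ATML1 and PDF1 levels was 0.385 over the 25 positive nuclei of p1 and 0.436 over the 30 of p2. The nuclei of one p number share that label, and these values are descriptions. The 3 positive p2 nuclei that did not express PDF1 were nuclei 19, 36 and 52, with 224, 97.6 and 591 CPM of ATML1. They expressed 3, 5 and 17 genes of the cuticle list described next. Absence of PDF1 therefore went with few cuticle genes in the first and the second of these nuclei and with many in nucleus 52. The pair of positive p1 nuclei without PDF1 expression, nuclei 1 and 63, expressed 5 and 11 cuticle genes.

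The number of cuticle genes expressed per nucleus separated the classes in p2. Of a list of 32 genes that build, export or regulate the cuticle, a positive p2 nucleus expressed 2 to 22 with a median of 11, and a negative one 0 to 15 with a median of 3. The middle 50% of nuclei did not overlap, at 9 to 14.8 genes in positive nuclei and 2 to 6 in negative ones. In p1, positive nuclei expressed 1 to 16 cuticle genes with a median of 10 and negative nuclei 2 to 16 with a median of 6, and the middle ranges of 6 to 11 and 4 to 9 overlapped. Thinned to 50000 counts, the medians were 11.5 and 4 in p2 and 9 and 6 in p1. The summed level of the list had medians of 6801 and 1185 CPM in positive and negative p2 nuclei, and of 3421 and 3207 CPM in p1.

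**Figure D2:**
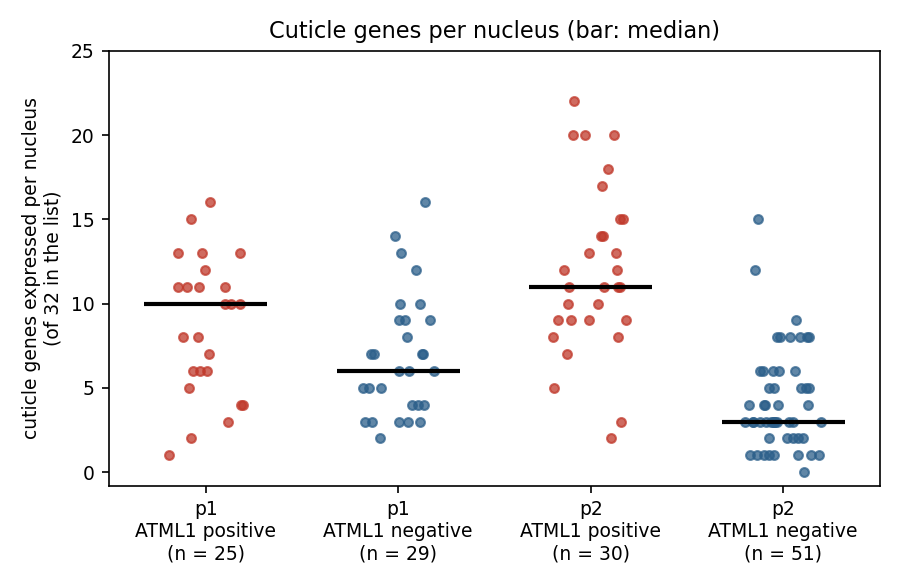
Number of cuticle genes expressed in each nucleus (of 32 in the list, at 5 counts and 10 CPM), by p number and ATML1 class; each point is a nucleus, spread sideways at random, and the bar is the median. The p2 medians are 11 in positive and 3 in negative nuclei, and the p1 medians 10 and 6.

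Across the genome, 6923 nuclear genes were measured, meaning that they were expressed in at least 10% of the classed nuclei in p1 and in p2. The mean level over nuclei was compared as log2 of (CPM + 1) in positive over negative nuclei, a scale that understates low genes, and a gene was called at a 2-fold difference. Before any list is read, these are the shares of all measured genes past that line. In p1, 18.1% were higher in positive nuclei and 18.4% lower. In p2, 16.6% were higher and 17.8% lower. The same direction in p1 and p2 was found for 238 higher genes (3.44%) and 268 lower genes (3.87%). Genes higher in p2 were higher in p1 in 20.8% of cases, close to the 18.1% of all genes, and genes higher in p1 were higher in p2 in 19%, close to 16.6%. Across the 6923 genes, which are not independent replicates, Spearman's rho between the p1 and p2 ratios was 0.004. The p1 and p2 ratios of positive over negative nuclei thus shared little more than the shares of all genes give. Many calls also rested on 1 nucleus: with each gene's highest positive nucleus left out, a setting added after the data were seen that can only lower the ratio, 53 genes were higher in both p1 and p2. With each gene's highest negative nucleus left out, which can only raise it, 45 were lower in both.

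Cuticle genes were the group in which p2 positive nuclei stood out by size. Of the 32 listed, 20 were measured, and 14 of these were at least 2-fold higher in p2 with 0 lower. In p1 it was 4 higher and 4 lower. Without each gene's highest positive nucleus, the 14 p2 genes remained 2-fold higher and 3 of the 4 p1 genes did, and without each gene's highest negative nucleus 0 of the 4 lower p1 genes remained 2-fold lower. The median log2 ratio of the 20 genes was 2.28 in p2 and 0.06 in p1, against -0.012 and -0.0023 over all measured genes. A gene could pass the 10% filter through the positive nuclei alone, so these counts describe the genes that passed and not the list. Over all 32 genes, the share of expressing nuclei was higher in positive nuclei for 26, lower for 1 and equal for 5 in p2, and higher for 19, lower for 9 and equal for 4 in p1. Shares were also higher for 74.4% of all measured genes in p2 and 71.7% in p1. The size of the difference was larger for the list, with median shares of 33.3% in positive and 7.84% in negative p2 nuclei against 23.3 and 17.6% over all measured genes. In p1 the medians were 28 and 17.2% for the list and 28 and 20.7% for all measured genes.

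The enzymes of cutin and of the outer wall are described first. BDG1 (AT1G64670), an extracellular hydrolase of the epidermis, had 0, 78 and 989 CPM as lowest, median and highest level in positive p2 nuclei and 0, 0 and 414 CPM in negative ones. It was expressed in 18 of 30 positive nuclei (60%, 40.6 to 77.3%) and 2 of 51 negative nuclei (3.92%, 0.478 to 13.5%), with a log2 ratio of 4.32. Most positive p2 nuclei therefore held BDG1 RNA and nearly all negative ones lacked it at this depth. DCR (AT5G23940), an acyltransferase needed for cutin, had 0, 418 and 3941 CPM in positive p2 nuclei and 0, 0 and 447 CPM in negative ones. It was expressed in 73.3% (54.1 to 87.7%) and 15.7% (7.02 to 28.6%) of them, with a log2 ratio of 4.13. The p1 nuclei did not show this gap: BDG1 was expressed in 36% of positive and 27.6% of negative nuclei and DCR in 36 and 37.9%, with log2 ratios of -0.36 and -0.89. HTH (AT1G72970), an oxidoreductase that keeps organs from fusing, was expressed in 66.7 and 23.5% of p2 nuclei and in 28 and 34.5% of p1 nuclei. GPAT4 (AT1G01610), which attaches fatty acids to glycerol for cutin, was expressed in 30 and 7.84% in p2. Its log2 ratios were 1.84 in p2 and 0.12 in p1. Its relative GPAT8 (AT4G00400), which did not pass the filter, was expressed in 30 and 3.92% in p2.

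In p2, several genes that activate and elongate fatty acids followed the same order. In p1 the cuticle list went both ways, with 4 measured genes at least 2-fold higher and 4 lower. FDH (AT2G26250), a ketoacyl-CoA synthase of the epidermis, had 0, 720 and 4191 CPM in positive p2 nuclei and 0, 0 and 2696 CPM in negative ones. It was expressed in 73.3% (54.1 to 87.7%) and 23.5% (12.8 to 37.5%), with a log2 ratio of 3.05. Its p1 levels were 0.225, 183 and 1536 CPM in positive nuclei and 0, 140 and 1241 CPM in negative ones, a log2 ratio of 0.28. FDH RNA was thus found in most p1 nuclei of either class, at 72 and 62.1%. LACS1 (AT2G47240), a long-chain acyl-CoA synthetase, was expressed in 70% (50.6 to 85.3%) of positive and 15.7% (7.02 to 28.6%) of negative p2 nuclei, with a log2 ratio of 3.20. CER10 (AT3G55360), the reductase of the elongation complex, was expressed in 36.7 and 7.84%. CER3 (AT5G57800), which acts in alkane formation, was expressed in 70 and 29.4% of p2 nuclei, but its mean level was below the 2-fold line at a log2 ratio of 0.94, and 1 negative nucleus held 54.7% of the summed level of that class. CER1 (AT1G02205), another measured gene of the cuticle list, had mean levels of 62.2 and 79.8 CPM in positive and negative p2 nuclei. Its p2 log2 ratio of -0.36 was -0.98 without the highest positive nucleus and 0.77 without the highest negative one. In p1 the log2 ratio of CER1 was 0.55. The elongation enzymes KCR1 and PAS2 showed little difference, at 26.7 and 27.5% and at 30 and 25.5% in p2.

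The cuticle genes at least 2-fold higher in both p1 and p2 were KCS1 (AT1G01120), CER6 (AT1G68530), LACS2 (AT1G49430) and CER5 (AT1G51500). KCS1, an elongase subunit, had 0, 0 and 179 CPM in positive p1 nuclei and 0, 0 and 9.84 CPM in negative ones, and 0, 0 and 631 CPM against 0, 0 and 446 CPM in p2. It was expressed in 28% (12.1 to 49.4%) of positive p1 nuclei and in 0 of 29 negative ones, which allows a share of up to 11.9%, and in 33.3% (17.3 to 52.8%) and 3.92% (0.478 to 13.5%) in p2. This was a gene of a minority of positive nuclei in either p number. CER6, the elongase of wax precursors, was expressed in 48 and 24.1% of p1 nuclei and in 53.3 and 21.6% of p2 nuclei, with log2 ratios of 2.41 and 1.56. LACS2, an acyl-CoA synthetase of cutin formation, had log2 ratios of 2.40 and 2.61, although its p1 shares of 32 and 27.6% were close. CER5, a wax transporter, had log2 ratios of 1.47 in both, with shares of 32 and 13.8% in p1 and 43.3 and 15.7% in p2. In p1, 49.6% of the summed CER5 level of positive nuclei lay in 1 nucleus, and without it the log2 ratio was 0.56, below the 2-fold line.

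Export proteins differed among themselves. LTPG1 (AT1G27950), a membrane-anchored lipid transfer protein for wax export, had 0, 918 and 2685 CPM in positive p2 nuclei and 0, 0 and 2761 CPM in negative ones. It was expressed in 28 of 30 positive nuclei (93.3%, 77.9 to 99.2%) and 15 of 51 negative ones (29.4%, 17.5 to 43.8%), with a log2 ratio of 2.1. In p1 it was expressed in 76 and 69%, with a log2 ratio of -0.20. ABCG11 (AT1G17840), a transporter for wax and cutin, was expressed in fewer nuclei, 33.3% (17.3 to 52.8%) of positive and 3.92% (0.478 to 13.5%) of negative p2 nuclei. Its mean levels there were 200.2 and 2.19 CPM, a log2 ratio of 5.98, with 32.2% of the summed level of positive nuclei in 1 nucleus. In p1, ABCG11 was expressed in 32 and 27.6%, with a log2 ratio of 0.15. LTP1 (AT2G38540), another lipid transfer protein, was expressed in at least 90.2% of nuclei of every class and differed by log2 ratios of 0.06 in p1 and 0.38 in p2.

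Regulators of the pathway were expressed in too few p1 nuclei to be measured. MYB30 (AT3G28910) and MYB96 (AT5G62470), transcription factors that activate wax and long-chain fatty acid genes, were expressed in 46.7% (28.3 to 65.7%) and 43.3% (25.5 to 62.6%) of positive p2 nuclei. In negative p2 nuclei the shares were 5.88% (1.23 to 16.2%) and 11.8% (4.44 to 23.9%). In p1, each was expressed in 8% of positive nuclei and in 0 of 29 negative ones. MYB16 (AT5G15310), a regulator of epidermal cell shape and cuticle, was expressed in 20 and 3.92% of p2 nuclei. WIN1 and SHN3, cuticle regulators of another family, were expressed in no nucleus of either class.

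**Figure D3:**
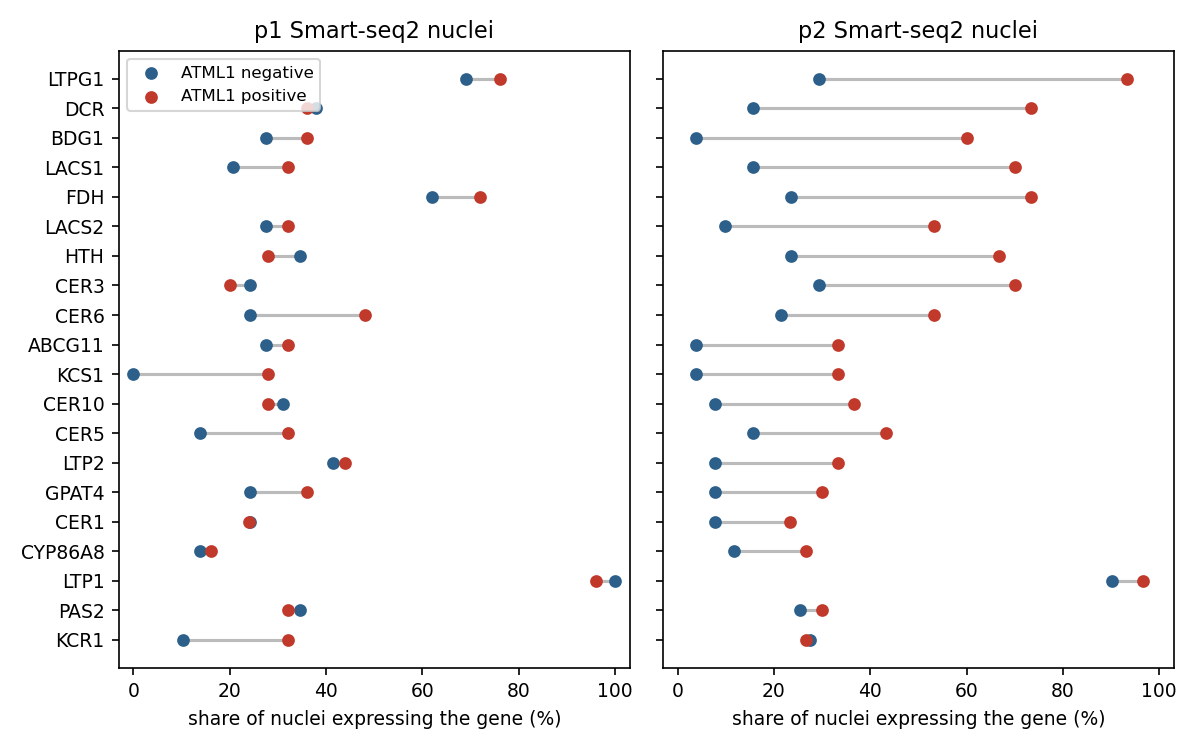
Share of nuclei expressing each of the 20 measured cuticle genes among ATML1-positive and ATML1-negative nuclei of p1 (left) and p2 (right), ordered by the p2 difference. In p2 the pairs are far apart for most genes, such as BDG1 at 60 and 3.92%, whereas in p1 the points lie close together except for a few such as KCS1 and CER6.

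The L1 box, the word bound by ATML1 and PDF2 (AT4G04890), was looked up in front of these genes as TAAATGCA or TAAATGTA on either strand within 250 bases before the annotated start (RefSeq, TAIR10.1). It was found before 3 of the 32 cuticle genes (9.38%), before 4.51% of 26706 protein-coding genes and before 4.42% of 6907 measured ones. Among the 1144 genes at least 2-fold higher in p2 positive nuclei it was found before 5.42%. A match is a description of the letters and says nothing of binding. The last 100 bases before the start of the 3 cuticle genes are shown because these genes were among those with more frequent RNA in p2 positive nuclei, with the L1 box in capitals, for FDH at chr2:11173279-11173378 (minus strand), ABCG11 at chr1:6142302-6142401 (plus strand) and MYB96 at chr5:25081142-25081241 (minus strand).
FDH: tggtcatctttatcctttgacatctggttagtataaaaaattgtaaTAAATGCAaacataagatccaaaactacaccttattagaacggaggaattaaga
ABCG11: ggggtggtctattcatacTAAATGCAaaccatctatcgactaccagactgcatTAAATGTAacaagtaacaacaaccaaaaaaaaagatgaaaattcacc
MYB96: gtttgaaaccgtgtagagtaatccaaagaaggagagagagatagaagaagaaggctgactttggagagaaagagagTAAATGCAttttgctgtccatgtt
ABCG11 held 2 boxes, beginning 82 and 47 bases before the start, whereas the box of FDH began 54 bases and that of MYB96 24 bases before it. No other annotated gene overlapped these windows.

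The other members of the HD-ZIP IV family were read next. Of 15 besides ATML1, 4 were measured, and 0 of these were 2-fold higher or lower in both p1 and p2. PDF2 had 0, 38.4 and 1442 CPM in positive p2 nuclei and 0, 0 and 817 CPM in negative ones, and it was expressed in 53.3% (34.3 to 71.7%) and 21.6% (11.3 to 35.3%). In p1 its levels were 0, 11.7 and 410 CPM against 0, 0.521 and 1908 CPM. The p1 shares were 52 and 37.9%, and the log2 ratio pointed the other way, at -1.87 in p1 against 1.92 in p2. PDF2 and ATML1 are similar in sequence and may share reads, so the PDF2 values are uncertain. HDG5 (AT5G46880) was expressed in 12 of 30 positive p2 nuclei (40%, 22.7 to 59.4%) and in 1 of 51 negative ones (1.96%, 0.0496 to 10.4%). HDG12 (AT1G17920), which was not measured, was expressed in 33.3 and 3.92% of p2 nuclei, but in p1 in 4 and 13.8%. ANL2 (AT4G00730), which controls anthocyanin accumulation beneath the epidermis and root cell identity, was expressed in 63.3 and 31.4% of p2 nuclei, with a log2 ratio of only 0.37. HDG2 (AT1G05230) was expressed in 26.7 and 9.80% of p2 nuclei, with a log2 ratio of 1.25, and in 32 and 20.7% of p1 nuclei, with a log2 ratio of 0.47. In p2, 62.1% of the summed HDG2 level of positive nuclei lay in 1 nucleus, and without it the log2 ratio was -0.07. Of the 4 measured members, 2 were 2-fold higher and 0 lower in p2, and 1 was higher and 1 lower in p1. The higher p1 gene fell below the 2-fold line without its highest positive nucleus. The lower p1 gene remained 2-fold lower without its highest negative nucleus. Over all 15 members, the share of expressing nuclei in p2 was higher in positive nuclei for 10, lower for 2 and equal for 3. In p1 it was higher for 7, lower for 4 and equal for 4. Over all measured genes, shares were higher for 74.4% in p2 and 71.7% in p1. The family counts include members that did not pass the filter, so they cannot be set against these shares directly. The family as a whole had median log2 ratios of 0.12 in p1 and 0.81 in p2 over its 4 measured members. L1 boxes lay before 3 of 16 family members (18.8%), namely ANL2, HDG2 and HDG10.

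Of 8 genes of epidermal identity and signalling, PDF1 among them, 3 were measured. Over all 8, the share of expressing nuclei in p2 was higher in positive nuclei for 4, lower for 2 and equal for 2. In p1 it was higher for 5, lower for 1 and equal for 2. These counts too include genes that did not pass the filter. They cannot be set directly against the 74.4 and 71.7% of all measured genes in p2 and p1. DEK1 (AT1G55350), a membrane protein required for epidermal fate, was expressed in 66.7 and 68.6% of p2 nuclei and 40 and 31% of p1 nuclei. ALE2 (AT2G20300), a receptor kinase of epidermal surface formation, was expressed in 23.3 and 23.5% in p2 and 28 and 10.3% in p1. ACR4 (AT3G59420), a receptor kinase of the outer layer that was not measured, was expressed in 20 and 5.88% in p2 and 8 and 10.3% in p1. Besides PDF1, no gene of this list of 8 was at least 2-fold higher among those measured in p2, and ALE2 was the member so in p1. One of the 8 genes, GSO1, had an L1 box before its start (12.5%).

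Other genes led the p2 difference alongside the cuticle list. The genes with the largest difference in share in p2 were chosen after their values were seen and are given as a description. AT5G45670, annotated without a symbol, was expressed in 80% (61.4 to 92.3%) of positive and 9.80% (3.26 to 21.4%) of negative p2 nuclei. DRB3 (AT3G26932), a double-stranded RNA binding protein, was expressed in 70% (50.6 to 85.3%) and 19.6% (9.82 to 33.1%). LTP6 (AT3G08770) was expressed in 66.7 and 19.6%, LTL1 (AT3G04290), a lipase family member, in 63.3 and 13.7%, and CAD9 (AT4G39330) in 66.7 and 15.7%. AT4G29030 had the highest level of these, with 0, 699 and 11540 CPM in positive p2 nuclei and 0, 2.93 and 3683 CPM in negative ones. In p1, AT4G29030 was expressed in 60 and 62.1%, DRB3 in 48 and 41.4% and CAD9 in 76 and 69%. The genes with the largest share difference in p1 included EDD1 (AT3G48110), a plastid glycyl-tRNA synthetase, at 72 and 20.7% in p1 and 36.7 and 23.5% in p2. NIR1 (AT2G15620), the nitrite reductase, was expressed in 80 and 31% in p1 and 36.7 and 19.6% in p2. Its log2 ratios were 1.27 and 1.5, and the latter was 0.78 without the highest positive nucleus. PHYA (AT1G09570), the far-red light receptor, was expressed in 56 and 13.8% of p1 nuclei but in 16.7 and 15.7% of p2 nuclei.

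**Figure D4:**
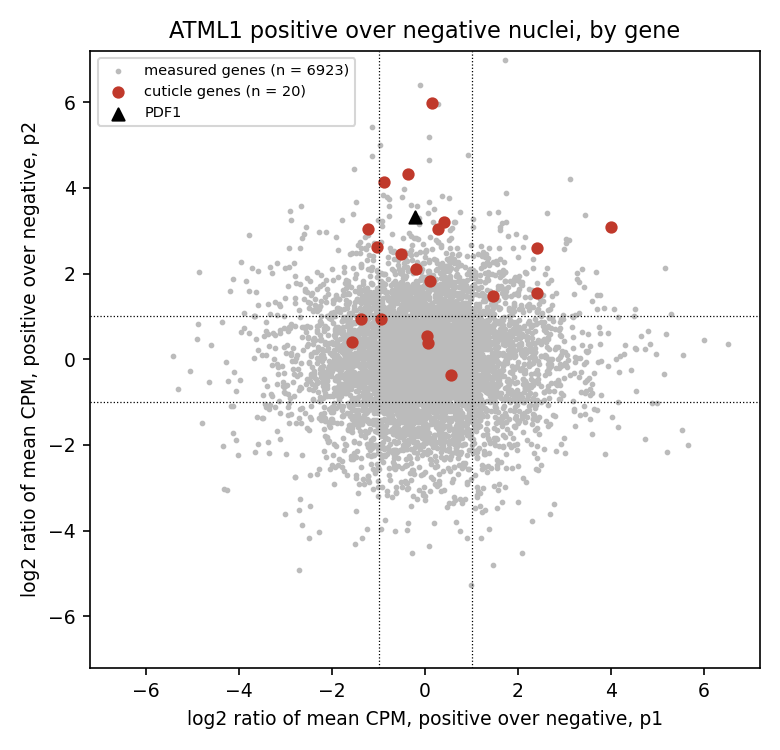
Log2 ratio of mean CPM in ATML1-positive over ATML1-negative nuclei in p2 against that in p1 for 6923 measured genes, with the 20 measured cuticle genes in red and PDF1 as a black triangle; dotted lines mark a 2-fold difference. The cuticle genes lie mostly above the p2 line, with a median of 2.28, and to both sides of 0 in p1, with a median of 0.06.

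The genes named next were at least 2-fold higher in both p1 and p2 and had the largest differences in share by the smaller of the p1 and p2 values. AGP18 (AT4G37450), an arabinogalactan protein of the cell wall, had 0, 2.50 and 339 CPM in positive p1 nuclei and 0, 0 and 213 CPM in negative ones, and 0, 1.07 and 484 CPM against 0, 0 and 448 CPM in p2. It was expressed in 44 and 13.8% of p1 nuclei and 46.7 and 13.7% of p2 nuclei. LTP5 (AT3G51600), a lipid transfer protein, was expressed in 76 and 37.9% in p1 and 50 and 23.5% in p2. ERD9 (AT1G10370), a glutathione S-transferase, had log2 ratios of 3.43 and 3.36, with shares of 32 and 6.90% in p1 and 40 and 11.8% in p2. ICR1 (AT1G17140), a scaffold protein of ROP GTPase signalling, was expressed in 68 and 20.7% in p1 and 60 and 35.3% in p2. PATL2 (AT1G22530), a lipid-binding patellin, was expressed in 40 and 6.90% in p1 and 33.3 and 9.80% in p2. NAI2 (AT3G15950), a protein of endoplasmic reticulum bodies, was expressed in 36 and 13.8% in p1, and in p2 in 30% of positive nuclei and 0 of 51 negative ones, which allows up to 6.98%. KCS1 and CER6 stood in this group as well, and the others were PDH-E1 ALPHA, SAP5, PTAC3, AT4G34881, VHA-A, emb1427 and ALPHA-SNAP2. Without the highest positive nucleus, ICR1 and PATL2 had p2 log2 ratios of 0.82 and 0.64, and PDH-E1 ALPHA, SAP5, AT4G34881 and VHA-A likewise fell below the 2-fold line in p1, p2 or both. Since the share of genes higher in both was 3.44% and close to that of genes lower in both, this order is a description and no set of its own.

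Of the 268 genes at least 2-fold lower in positive nuclei in both p1 and p2, 142 also had a lower share of expressing nuclei in both, whereas 213 of the 238 higher genes had a higher share in both. These counts cannot be set against each other directly. Shares were higher in positive nuclei for 71.7% of all measured genes in p1 and 74.4% in p2. The lower genes named next are from the 142. NDC1 (AT5G08740), a plastid NAD(P)H dehydrogenase, was expressed in 8 and 31% of p1 nuclei and 3.33 and 17.6% of p2 nuclei, with log2 ratios of -2.71 and -4.91. FZL (AT1G03160), a protein of thylakoid organisation, was expressed in 8 and 24.1% in p1 and 6.67 and 23.5% in p2, but its p1 log2 ratio of -1.19 was -0.03 without the highest negative nucleus. The others of this rank were AT5G22320, AT4G26288, AT1G22060, NAC052, AT4G31620 and AT2G04700, at 8 to 36% of positive p1 nuclei and 3.33 to 16.7% of positive p2 nuclei. Of these, AT4G26288 in p1 and AT1G22060 and NAC052 in p2 were less than 2-fold lower without their highest negative nucleus.

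RNA of genes of the stem cells and the meristem interior was also present in ATML1-positive nuclei, although most measured genes of this list had lower levels there. CLV3 (AT2G27250), the stem cell peptide, was expressed in 5 of 25 positive (20%, 6.83 to 40.7%) and 3 of 29 negative p1 nuclei (10.3%, 2.19 to 27.4%), and in 2 of 30 (6.67%) and 2 of 51 (3.92%) in p2. STM (AT1G62360), which keeps meristem cells undifferentiated, was expressed in 8% (0.984 to 26%) of positive and 31% (15.3 to 50.8%) of negative p1 nuclei, and in 26.7 and 35.3% in p2. Of 8 genes in this list, 5 were measured, and 3 of these were at least 2-fold lower and 0 higher in p1 and again in p2. Without each gene's highest negative nucleus, 2 of the 3 remained lower in either p number. The 5 genes had median log2 ratios of -2.14 in p1 and -1.17 in p2. Over all 8, shares were lower in positive nuclei for 5 and higher for 2 in p1, and for 5 and 3 in p2. CLV1 (AT1G75820) and KNAT2 (AT1G70510) were at least 2-fold lower in both, as were 3.87% of all measured genes. CLV1, the receptor kinase of the inner stem cell region, had mean levels of 42.7 and 192 CPM in p1 and 16.5 and 83.6 CPM in p2, although the shares were close at 24 and 31% and at 20 and 21.6%. KNAT2, a homeobox relative of STM, was expressed in 12 and 13.8% of p1 nuclei and 6.67 and 19.6% of p2 nuclei. In p1, 50.8% of its summed level in positive nuclei and 80% of that in negative ones lay in 1 nucleus of each class, and in p2 86.3 and 35.9%. Its p1 log2 ratio of -3.01 was -0.82 without the highest negative nucleus, so the p1 call rested on 1 nucleus. WUS (AT2G17950), which marks the organising centre beneath the stem cells, was expressed in 0 of 25 positive p1 nuclei and 1 of 30 positive p2 nuclei.

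Markers of other cell types were read in the positive nuclei as a check on identity. Of 11 primordium genes, 8 were measured. YAB3 (AT4G00180), a gene of the abaxial side of leaf primordia, was expressed in 40 and 20.7% of p1 nuclei and 43.3 and 11.8% of p2 nuclei, and at least one of FIL and YAB3 in 52 and 27.6% and in 46.7 and 25.5%. AIL6 (AT5G10510), which promotes organ outgrowth, was at least 2-fold lower in both, with log2 ratios of -2 and -1.40. Vascular genes were rare, with 1 of 7 measured. SUC2 (AT1G22710), the phloem sucrose carrier, had log2 ratios of -2.07 and -1.53, with shares of 8 and 31% in p1 but 26.7 and 13.7% in p2, where 1 negative nucleus held 66.1% of that class's summed level and the ratio was -0.03 without it. The summed vascular level had medians of 1.95 and 1.28 CPM in positive and negative p1 nuclei and 0 in both p2 classes. Organ boundary genes, with 0 of 6 measured, had a summed median of 0 CPM in all 4 classes. Some nuclei held them, however. Any of CUC1, CUC2, CUC3 and LOB was expressed in 24 and 17.2% of positive and negative p1 nuclei and in 16.7 and 15.7% in p2.

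The 13 photosynthesis genes were measured throughout, and 0 were 2-fold higher or lower in either p number. RBCS1A (AT1G67090), the small subunit of Rubisco, was expressed in all nuclei of both classes, with mean levels of 10705 and 9763 CPM in p1 and 6004 and 6928 CPM in p2. The summed level of the list had medians of 34013 and 32229 CPM in p1 and 20296 and 22711 CPM in p2. RBCS1A also had 5 counts over the control wells, and its copies can share reads. Of the 6 housekeeping genes, 0 were 2-fold apart in the same direction in p1 and p2. Within each p number, however, 1 was at least 2-fold higher and 1 lower. PP2AA3 (AT1G13320) had log2 ratios of -1.70 in p1 and 1.86 in p2. These were -0.63 without the highest negative p1 nucleus and 0.66 without the highest positive p2 nucleus.

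Stomatal and trichome genes, which belong to specialised epidermal cells, did not mark the positive nuclei as a group. Of 14 stomatal lineage genes 5 were measured, and ICE1 (AT3G26744) was 2-fold lower in both, with log2 ratios of -1.03 and -1.25, which were -0.36 and -0.70 without the highest negative nucleus. The lineage factors SPCH, MUTE and FAMA were expressed in 0 of the 30 positive p2 nuclei. In the receptor family of this list, ER (AT2G26330) was expressed in 70 and 64.7% of p2 nuclei and ERL1 (AT5G62230) in 43.3 and 23.5%. Of 11 trichome genes 2 were measured, EGL3 (AT1G63650) and TTG1 (AT5G24520), regulators of trichome initiation. EGL3 was expressed in 24 and 17.2% of p1 nuclei and 26.7 and 11.8% of p2 nuclei, with log2 ratios of 0.65 and 1.72. TTG1 was expressed in 12 and 13.8% and in 20 and 11.8%, with log2 ratios of 1.98 and -1.07, which were 0.41 without the highest positive p1 nucleus and -0.53 without the highest negative p2 nucleus. TTG2 (AT2G37260), a regulator of trichome outgrowth that was not measured, was expressed in 26.7 and 9.80% of p2 nuclei and 12 and 6.90% of p1 nuclei. WER (AT5G14750), a root epidermis regulator placed in the list of genes silent in a shoot apex, was expressed in 5 of 30 positive p2 nuclei (16.7%, 5.64 to 34.7%) and 3 of 51 negative ones (5.88%, 1.23 to 16.2%), and in p1 in 0 of 25 and 2 of 29 (6.90%). The other 5 genes of that list were expressed in no nucleus of either class.

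Cell division genes differed in p2 more than in p1. Of 11, 9 were measured, and 4 were at least 2-fold higher and 1 lower in p2, against 0 and 0 in p1. Over all measured genes, 16.6% were higher and 17.8% lower in p2, and 18.1 and 18.4% in p1. Without each gene's highest positive nucleus, 2 of the 4 remained higher in p2. The 1 lower gene did not remain 2-fold lower without its highest negative nucleus. PCNA1 (AT1G07370), the sliding clamp of DNA replication, was expressed in 23.3% (9.93 to 42.3%) of positive and 3.92% (0.478 to 13.5%) of negative p2 nuclei, with a log2 ratio of 5.2. In p1 it was expressed in 32 and 24.1%, with a log2 ratio of 0.08. CYCB1;1, a mitotic cyclin, had a log2 ratio of 3.50 in p2, but 69.9% of the summed level of positive nuclei came from 1 nucleus. The part of cell cycle state in the cuticle result was not tested.

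ARGONAUTE genes, whose proteins carry small RNAs, were 2-fold higher or lower in both p1 and p2 in 0 of 4 measured of 9 listed. AGO1 (AT1G48410), the main microRNA effector, was expressed in 44% (24.4 to 65.1%) of positive and 41.4% (23.5 to 61.1%) of negative p1 nuclei and in 33.3% (17.3 to 52.8%) and 19.6% (9.82 to 33.1%) in p2. AGO4 (AT2G27040), which acts in RNA-directed DNA methylation, was expressed in 32 and 44.8% in p1 and 53.3 and 39.2% in p2. AGO9 (AT5G21150), known from work on the germline, was expressed in 24 and 20.7% and in 20 and 23.5%. AGO10 (AT5G43810), a gene of the meristem and vascular precursors, was expressed in 20 and 13.8% in p1 and 36.7 and 31.4% in p2, with log2 ratios of -1.58 and -0.94. The p1 ratio of AGO10 was 0.49 without the highest negative nucleus. AGO7 (AT1G69440), which acts in trans-acting siRNA formation and was not measured, was expressed in 4 and 10.3% in p1 and 10 and 19.6% in p2, with log2 ratios of -2.73 and -0.77.

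The auxin genes AUX1, LAX1 and PID were at least 2-fold lower in positive p1 nuclei and less than 2-fold apart in p2. Over all measured genes, 18.4% were 2-fold lower in p1. The genes named here belong to a list of 7 auxin and cytokinin genes, and no count over that list is read. AUX1 (AT2G38120), an auxin influx carrier, was expressed in 24 and 17.2% of p1 nuclei and 36.7 and 15.7% of p2 nuclei, with log2 ratios of -2.28 and 0.81. LAX1 (AT5G01240), its relative, was expressed in 16 and 17.2% and in 16.7 and 13.7%, with log2 ratios of -1.69 and 0.78. PID (AT2G34650), a kinase that acts on auxin transport, was expressed in 24 and 31% and in 30 and 23.5%, with log2 ratios of -1.40 and -0.40, and the p1 value was -0.97 without the highest negative nucleus.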

How the data were processed

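The values are estimated counts for each gene in each well as the authors deposited them; 9.69% of those above 0 were not whole, and all were rounded. The submitters' processing notes name TAIR10 and DESeq2 without a role, and the aligner, counter and filters are not given in the sources used here. Library size was the sum over nuclear, plastid and mitochondrial genes. Of 29412 nuclear gene identifiers, 28924 (98.3%) had a RefSeq annotation (TAIR10.1), which gave symbols and promoters. The members, the lists and the rules were chosen with earlier results of these data known. Nuclear genes other than ribosomal RNA and ATML1 were compared by the mean CPM over nuclei with a pseudocount of 1. Named genes were the 15 higher and 8 lower genes, called in both p numbers and shifted the same way in share, with the largest smaller share difference, and all list members; 2 listed identifiers whose symbol differed from the annotation were left out, and 1 listed gene is not reported here. No doublets were removed. In p1, low counts can be linked between wells of a block of 8, and no positive nucleus had an ATML1 count under 1% of that of a linked well. Thinning used seed 1. Scripts were tested on simulated data. Software: Python 3.11.15, numpy 2.4.6, pandas 2.3.3, scipy 1.17.1, matplotlib 3.10.9, R 4.3.3 and edgeR 4.0.16 (scaling factors only, as an alternative).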

Additional observations from a re-analysis of the deposited data

Results flagged for a closer look

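The Smart-seq3 wells were outside the comparison, and ATML1 RNA appeared in them above the 0 counts of the negative control wells. In p1, 7 of 8 Smart-seq3 nuclei had 1 to 10 ATML1 counts, and 2 would be positive by the same rule. In p2, 3 of 12 had ATML1 counts, at 26, 2 and 1, and the first would be positive, with 884 CPM of PDF1 and 11 cuticle genes expressed. No p1 or Smart-seq3 well served as a negative control. One p1 Smart-seq3 nucleus had 207 CPM of PDF1 from 42 counts, far from the other 7 nuclei at 0 to 97.4 CPM by Dixon's criterion. Chance meets that criterion in about 1 in 20 groups only for normally distributed values. The other 7 nuclei had 0 to 5 PDF1 counts, so that rate need not hold here.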

How the results depend on the processing

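The 14 p2 cuticle genes stayed within 14 to 20 under every alternative except the filter at 25% of nuclei, which left 9 measured with 7 higher in p2 and 2 in p1; without a filter p1 had 8. Genes higher and lower in both p numbers numbered 22 and 24 with that filter, 1294 and 1278 without one, and 126 and 132 with a pseudocount of 10. With 0-count nuclei alone as the negatives, 358 were higher. With ATML1 from 20 counts and 50 CPM, 16 p1 nuclei were positive and 100% of them expressed PDF1. With ATML1 from 1 count the p1 order of PDF1 shares turned, at 83.8% in positive and 90% in negative nuclei, and NDC1 reversed in p1 to a log2 ratio of 0.38. The causes were not tested beyond what the settings remove. TMM and the median of ratios gave 1162 and 1144 higher genes in p1 and 1252 and 1265 in p2. An alternative added after seeing the data left out each gene's highest nucleus in 1 class: without the positive one, 53 genes were higher and 992 lower in both p numbers, and without the negative one 985 and 45, with 7 cuticle genes higher in p1; the setting moves every ratio 1 way. Leaving out the nucleus with the highest ATML1 level, thinning, library size and rounding moved no count by 1.5 times. Single log2 ratios of called and cuticle genes moved more often, by more than their counting interval, with no other reversal: 68 moved and 50 did not when thinned, 45 and 75 with nuclear library size, 31 and 89 without the nucleus highest in ATML1, and 102 and 18 with summed counts. No paired analysis was possible because the labels give no number shared between classed nuclei and no test was run. Depth limits genes at low levels, and p2 positive nuclei were deeper than negative ones.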
